A study of Mus musculus with 3 samples.

Results

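The proteasome is the barrel-shaped protease that degrades ubiquitin-tagged proteins. Its 20S core holds 3 catalytic subunits, Psmb5 with chymotrypsin-like, Psmb6 with caspase-like and Psmb7 with trypsin-like activity. Interferon-γ (IFN-γ) is known to induce a replacement for each of them, Psmb8 for Psmb5, Psmb9 for Psmb6 and Psmb10 for Psmb7, and cores built with these are called immunoproteasomes, which favour peptides suited to MHC class I. Psme1 and Psme2 form the PA28 activator, a ring that docks on the end of the core, and Pomp is the chaperone that the assembling core digests once it is complete. Ubd encodes FAT10, a protein of 2 ubiquitin-like domains that can be joined to substrates and sends them to the proteasome without ubiquitin. These 10 genes, of 32285 features counted, were taken by symbol, and all 10 had UMIs in every library.

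The data came from sc-RNAseq of mouse colon organoids, which are cultures of colon epithelium without stroma or immune cells, grown in full medium (FM). There were 3 libraries, 1 of untreated organoids, 1 after 24 h and 1 after 48 h of IFN-γ, and the study's methods give 50 ng/ml of mouse IFN-γ for organoids. The labels name no strain, genotype or age. The study describes its FM organoids as derived from untreated WT mice, and its methods use mice of 6 to 12 weeks and name C57bl/6 and 2 lineage-tracing reporter strains as sources of organoid tissue. Dead cells had been removed by FACS with DAPI, and transcripts were counted as unique molecular identifiers (UMIs), 1 per captured molecule. A barcode counted as a cell from 5000 UMIs and 400 genes upwards, with no more than 15% of its UMIs mitochondrial, which left 1058, 917 and 2934 cells with 47243500 to 71077817 UMIs per library and a median of 33550, 68784 and 10772 UMIs per cell (untreated, 24 h and 48 h, the order used throughout). Pairs of libraries shared 1 to 4 barcodes among the kept cells, and the 5 untreated cells whose barcode recurred in a treated library held 0 UMIs of Psmb8, Psmb9 or Ubd.

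Levels are the UMIs of a gene in all kept cells of a library together, as CPM, the count per 1000000 UMIs of those cells. Since each molecule is read once at its 3' end, CPM values of different genes can be set side by side without a length correction, although the capture of single transcripts may differ. With 1 library per condition no test across samples could be made, so no p-value is given. All intervals are exact at 95% and describe counting error alone, and both treated libraries are compared with the same untreated library. In summed counts, more cells of a type and more RNA per cell cannot be told apart. The summed epithelial markers (6 of 6 genes with UMIs) lay at 8035, 5960 and 5336 CPM. Other marker lists and the mitochondrial share differed between the libraries too, and their part in the results was not tested. The goblet list summed to 3117, 1003 and 697 CPM (10 of 10 genes), the colonocyte list to 2641, 1051 and 911 CPM (12 of 12), the stem list to 1798, 933 and 1473 CPM (13 of 13) and the proliferating list to 2458, 2693 and 2301 CPM (14 of 14). The enteroendocrine list summed to 173, 265 and 82.8 CPM (9 of 9) and the tuft list to 2.67, 5.95 and 5.78 CPM (6 to 7 of 7), and the median mitochondrial share of a cell was 4.83%, 2.12% and 6.14%. The immune list reached 1.14, 1.38 and 1.40 CPM, with 5 to 7 of 10 genes detected and Ptprc and Tyrobp at 0 UMIs in all 3 libraries. The stromal list reached 2.11, 11.3 and 17.8 CPM (105, 802 and 843 UMIs) with 3 to 4 of 8 genes detected. Its collagen genes Col1a1 and Col3a1 were at 0 in all 3 libraries, while Col1a2 and Cdh5 had UMIs at 48 h only. Pdgfra had UMIs in untreated and at 24 h, Dcn at 24 h only, and Acta2 and Pecam1 in all 3.

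Several of the genes with the largest ratios lie close together in the genome. On GRCm38 (mm10, GENCODE vM21), Psmb9 (chr17:34181987-34187764, minus strand), Tap1 (chr17:34187553-34197225, plus strand) and Psmb8 (chr17:34197721-34201454, plus strand) lie next to each other in the MHC class II region, and Ubd (chr17:37193892-37196095, plus strand) lies further along the same chromosome. Psme1 (chr14:55578123-55581529, plus strand) and Psme2 (chr14:55587441-55591113, minus strand) are also neighbours. Psmb5 (chr14:54614119-54618022) is on their chromosome, nearer to Psme1 than Ubd is to Psmb8. Psmb10 (chr8:105935735-105938444), Psmb6 (chr11:70525367-70527858), Psmb7 (chr2:38588036-38644087) and Pomp (chr5:147860461-147876456) lie apart. All 10 are protein coding and none overlapped another counted feature on its own strand. The promoters of the genes with the lowest untreated levels are shown because all 3 genes were near 0 CPM in untreated and at 176 CPM or more in treated cells, and that of Psme1 because it holds an interferon motif. Each is the RefSeq window on GRCm38.p6 from 250 bases before to 50 bases after the RefSeq start, read 5' to 3' on the gene's strand, with motif matches in capitals. The windows of Psmb8, Psmb9 and Psme1 lie wholly within the GENCODE genes given above. For these genes, bases upstream of the GENCODE start were therefore not searched.
Psmb8, chr17:34197945-34198244, plus strand: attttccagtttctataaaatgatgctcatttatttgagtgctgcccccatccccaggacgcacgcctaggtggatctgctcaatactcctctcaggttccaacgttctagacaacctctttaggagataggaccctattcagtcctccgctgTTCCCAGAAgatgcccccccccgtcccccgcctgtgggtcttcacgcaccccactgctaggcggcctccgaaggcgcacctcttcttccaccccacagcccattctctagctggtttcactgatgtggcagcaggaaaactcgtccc
Psmb9, chr17:34187281-34187580, minus strand: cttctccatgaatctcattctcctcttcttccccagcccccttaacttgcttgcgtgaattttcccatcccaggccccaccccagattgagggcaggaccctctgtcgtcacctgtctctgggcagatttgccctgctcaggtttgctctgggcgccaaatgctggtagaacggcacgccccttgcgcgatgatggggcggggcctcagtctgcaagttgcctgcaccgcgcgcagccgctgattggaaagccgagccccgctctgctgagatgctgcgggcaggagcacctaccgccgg
Ubd, chr17:37193642-37193941, plus strand: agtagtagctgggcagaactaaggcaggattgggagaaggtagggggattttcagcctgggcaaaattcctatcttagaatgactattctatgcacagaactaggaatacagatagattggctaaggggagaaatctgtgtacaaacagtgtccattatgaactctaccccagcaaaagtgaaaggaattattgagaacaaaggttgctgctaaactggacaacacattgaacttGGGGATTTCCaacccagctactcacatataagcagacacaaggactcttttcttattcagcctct
Psme1, chr14:55578244-55578543, plus strand: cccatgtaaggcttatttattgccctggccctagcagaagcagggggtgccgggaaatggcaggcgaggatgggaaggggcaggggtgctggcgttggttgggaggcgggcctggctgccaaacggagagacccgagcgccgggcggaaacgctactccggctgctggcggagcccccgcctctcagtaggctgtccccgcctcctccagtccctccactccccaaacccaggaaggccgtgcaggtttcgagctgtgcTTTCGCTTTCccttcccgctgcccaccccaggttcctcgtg

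Windows were found for 9 of the 10 genes, with none for Psmb7. Among these 9, the interferon-γ activation site TTCNNNGAA, which reads the same on both strands, occurred only in Psmb8, where it began at position -97 from the RefSeq start. This motif was found in 8.30% of all 32851 windows. The interferon-stimulated response element, taken as GAAA, any 2 bases and GAAA and searched on both strands, occurred only in Psme1, on the opposite strand and 9 bases past the start, and in 3.44% of all windows. The NF-κB consensus, also searched on both strands, occurred only in Ubd, at -15 from the start, and in 8.46% of all windows. These matches did not overlap each other. The Psmb9 window held none of the 3 motifs. It shared 275 of its bases (chr17:34187306-34187580) with the Tap1 window, read from the other strand, and the 2 RefSeq starts lay 226 bases apart. A match is a run of letters and not evidence that a factor binds there, and the absence of one says only that these letters are not in this window.

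In untreated organoids the constitutive subunits made up nearly all catalytic transcripts, and the induced set was carried by 1 gene. Psmb8 was counted at 0.964, 474 and 495 CPM (untreated, 24 h and 48 h). The untreated value rests on 48 UMIs in 43 of 1058 cells. Psmb8 was thus the lowest of the 6 catalytic subunits without treatment and the highest with it. Psmb9 was counted at 3.27, 235 and 176 CPM, of which the untreated value rests on 163 UMIs in 128 cells. Psmb10 was counted at 56.7, 429 and 387 CPM. It was already present before treatment and supplied 93.0% of the untreated UMIs of the induced set, against 1.58% from Psmb8 and 5.37% from Psmb9. After 24 h the set was shared by Psmb8 with 41.6%, Psmb9 with 20.7% and Psmb10 with 37.7%, and after 48 h by 46.7%, 16.7% and 36.6%.

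Over the untreated library, the log2 ratio of Psmb8 was 8.94 (95% CI 8.53 to 9.38) at 24 h and 9.0 (8.60 to 9.44) at 48 h. That of Psmb9 was 6.17 (5.95 to 6.40) and 5.75 (5.53 to 5.99), and that of Psmb10 was 2.92 (2.86 to 2.98) and 2.77 (2.71 to 2.83). The size of the 3 ratios followed the reverse order of the untreated levels. These are the denominators and differed far more between the genes than the treated levels, so the order adds nothing to them. Read directly between the treated libraries, Psmb9 was lower at 48 h than at 24 h by a log2 ratio of -0.42 (-0.45 to -0.38) and Psmb10 by -0.15 (-0.17 to -0.12). Psmb8 differed by 0.06 (0.04 to 0.09), beside a median of 0.26 over 16814 genes. Over the 3504 genes averaging 50 CPM or more, which Psmb8 does, the median was -0.01. These values rest on library totals. By TMM factors, explained below, Psmb8 was at 9.39 over untreated at 24 h and 9.19 at 48 h, so lower at 48 h. Not all of the order by library totals held within ranges of depth. Psmb10 was higher at 48 h in cells of 5000 to 10000 UMIs (250 and 329 CPM) and 10000 to 30000 (243 and 404 CPM). It was lower only in cells of at least 30000 UMIs (440 and 400 CPM). Psmb8 was higher in each range, at 272 and 377, 276 and 526 and 486 and 524 CPM. Psmb9 was lower in each, at 174 and 153, 190 and 184 and 238 and 180 CPM.

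**Figure D1:**
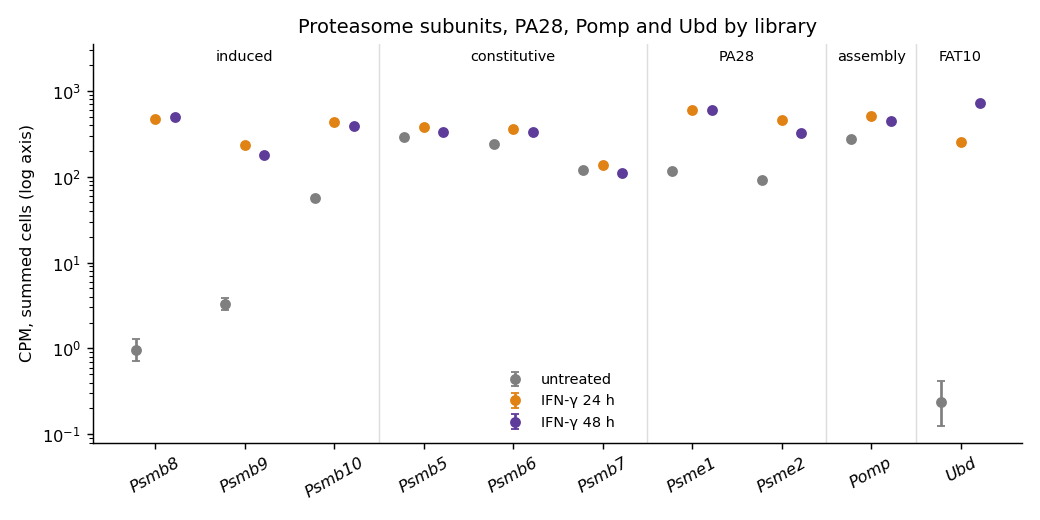
Summed level of each gene in each of the 3 libraries, in CPM on a log axis. Points are library values and bars are exact 95% counting intervals, most of them smaller than the point. Psmb8, Psmb9 and Ubd lie below 4 CPM in the untreated library and between 176 and 719 CPM in the treated ones, whereas Psmb5, Psmb6 and Psmb7 stay within 111 to 374 CPM.

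In the summed counts the constitutive partners changed little beside this. Psmb5 was counted at 288, 374 and 332 CPM, with log2 ratios of 0.37 (0.34 to 0.40) and 0.20 (0.17 to 0.24) to untreated. Psmb6 was counted at 239, 359 and 332 CPM, with ratios of 0.59 (0.56 to 0.62) and 0.47 (0.44 to 0.51). Psmb7 was counted at 119, 135 and 111 CPM, with ratios of 0.18 (0.13 to 0.22) and -0.11 (-0.16 to -0.05). Within ranges of depth Psmb5 and Psmb6 differed more in places. In cells of 10000 to 30000 UMIs Psmb5 was at 164, 179 and 342 CPM, and Psmb6 at 115, 165 and 351 CPM. Psmb7 was at 105, 116 and 112 CPM there. In cells of 5000 to 10000 UMIs Psmb5 was below untreated at 24 h, with 184, 170 and 247 CPM. Psmb5, Pomp and Psmb6 were, in this order, the highest of the 10 genes in untreated cells, and at 48 h Psmb5 and Psmb6 did not differ from each other beyond counting error. The 3 genes had a median log2 ratio of 0.37 (24 h) and 0.20 (48 h), beside a median of -0.46 over 17412 genes and -0.18 over 17376 genes with at least 10 counts in the 2 libraries compared. Over genes averaging 50 CPM or more, which these genes do, the median was -0.09 at 24 h and -0.05 at 48 h. The scale matters for values of this size. TMM factors balance the bulk of genes in place of the totals. They shifted every log2 ratio to untreated up by 0.45 at 24 h and 0.19 at 48 h, which turned the 48 h value of Psmb7 to 0.08.

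The ratio of each induced subunit to its partner does not depend on this scaling. Psmb8 to Psmb5, the chymotrypsin-like site, was 0.00334 (95% CI 0.00246 to 0.00443) in untreated cells, 1.27 (1.25 to 1.29) at 24 h and 1.49 (1.46 to 1.52) at 48 h, that is 380-fold and 446-fold over untreated. With cells thinned to 5000 UMIs, where the untreated library keeps 7 Psmb8 UMIs, these folds were 241-fold and 281-fold. Psmb9 to Psmb6, the caspase-like site of the constitutive core, was 0.0137 (0.0117 to 0.0160), 0.655 (0.643 to 0.668) and 0.532 (0.518 to 0.547), that is 47.9-fold and 38.9-fold over untreated. Psmb10 to Psmb7, the trypsin-like site, was 0.475 (0.454 to 0.496), 3.18 (3.11 to 3.25) and 3.49 (3.38 to 3.6), that is 6.70-fold and 7.35-fold over untreated. So in the summed counts the induced transcript outnumbered its partner for Psmb8 and Psmb10 at both times, and remained the minority for Psmb9. In 24 h cells of 10000 to 30000 UMIs, however, Psmb9 was above Psmb6, at 190 and 165 CPM. From 24 h to 48 h the summed ratios of Psmb8 and Psmb10 were 1.17-fold and 1.10-fold higher, and that of Psmb9 was 0.812-fold, so that the 3 pairs did not move the same way. The rise of Psmb8 to Psmb5 was seen only in cells of at least 30000 UMIs, with 486 to 386 CPM and 524 to 370 CPM. In cells of 5000 to 10000 UMIs it was slightly lower at 48 h, with 272 to 170 CPM and 377 to 247 CPM. In cells of 10000 to 30000 UMIs it was level, with 276 to 179 CPM and 526 to 342 CPM.

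The induced subunits held 8.61% (95% CI 8.32 to 8.90%) of the UMIs of all 6 catalytic subunits in untreated cells, 56.7% (56.5 to 57.0%) at 24 h and 57.7% (57.4 to 58.1%) at 48 h. The summed constitutive transcripts were not at lower CPM in the treated libraries, although Psmb7 alone was slightly lower at 48 h. Within ranges of depth Psmb7 was lower at 48 h only in cells of at least 30000 UMIs (122 and 109 CPM, untreated and 48 h). The 6 genes together were counted at 708, 2007 and 1834 CPM, of which the constitutive 3 gave 647, 868 and 775 CPM and the induced 3 gave 60.9, 1139 and 1059 CPM. Barcodes with fewer than 2000 UMIs gave shares of 9.12%, 57.5% and 59.0%. Depth differed between the libraries, and within each range of depth the treated share was again far above the untreated one, while the small difference between 24 h and 48 h had the opposite sign to that of all cells. In cells of 5000 to 10000, 10000 to 30000 and at least 30000 UMIs it was 11.2%, 9.80% and 8.47% in untreated, 60.1%, 60.6% and 56.6% in 24 h and 59.6%, 58.1% and 56.5% in 48 h cells.

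**Figure D2:**
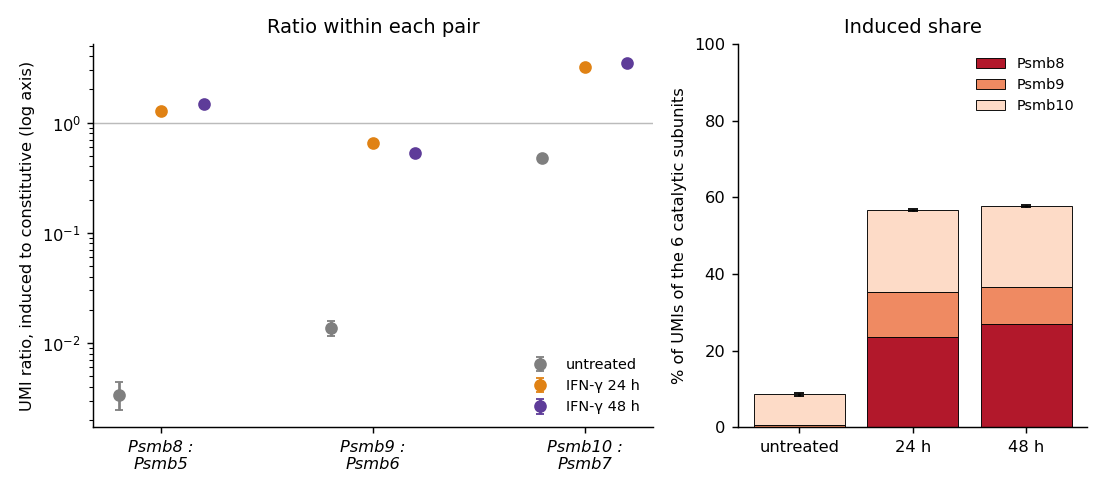
Left, UMI ratio of each induced subunit to its constitutive partner on a log axis, with exact 95% counting intervals and a line at equal counts. Right, the percent of UMIs of the 6 catalytic subunits that came from Psmb8, Psmb9 and Psmb10, stacked, with the interval of the sum. The share is 8.61% in untreated, 56.7% in 24 h and 57.7% in 48 h cells, and the Psmb9 pair stays below equal counts at both times.

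The PA28 genes were several-fold higher in both treated libraries. Psme1 was counted at 117, 600 and 604 CPM, with log2 ratios of 2.36 (2.32 to 2.40) and 2.36 (2.32 to 2.41). Psme2 was counted at 92.4, 455 and 326 CPM, with ratios of 2.30 (2.25 to 2.34) and 1.82 (1.77 to 1.87). Both subunits enter the same ring, and their UMIs stood at 1.27, 1.32 and 1.85 Psme1 per Psme2. In the summed counts Psme1 was level between 24 h and 48 h with a log2 ratio of 0.01 (-0.01 to 0.03), whereas Psme2 was lower at 48 h by -0.48 (-0.51 to -0.45). By TMM factors Psme1 was not level, at 2.80 over untreated at 24 h and 2.55 at 48 h. Within ranges of depth neither summed result held throughout. In cells of 5000 to 10000, 10000 to 30000 and at least 30000 UMIs, Psme1 was at 356, 341 and 616 CPM at 24 h. At 48 h it was at 445, 634 and 657 CPM. Psme2 was at 210, 236 and 468 CPM at 24 h and at 229, 349 and 353 CPM at 48 h, so lower only in the deepest cells. A near copy, Psme2b, had 66, 499 and 346 UMIs, so that reads of Psme2 may have been divided with it and its level is uncertain to that extent. Pomp was counted at 273, 515 and 445 CPM, with ratios of 0.92 (0.89 to 0.95) and 0.71 (0.68 to 0.74), which lay between the constitutive and the induced catalytic subunits. In cells of 10000 to 30000 UMIs Pomp was at 135, 246 and 462 CPM.

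In the summed counts Ubd showed the largest change of the 10 genes and the only large one between the treated libraries. It was counted at 0.241, 250 and 719 CPM. The untreated value rests on 12 UMIs in 9 cells, with at most 3 in a cell, and barcodes under 2000 UMIs of that library held 8 UMIs or 0.275 CPM. The log2 ratio to untreated was 10.02 (95% CI 9.22 to 10.97) at 24 h and 11.54 (10.74 to 12.50) at 48 h, and the width of these intervals comes from the 12 untreated UMIs. Between 24 h and 48 h it was 1.52 (1.5 to 1.55), or 2.87-fold, while the other 9 genes differed by -0.48 to 0.06. These values rest on library totals. By TMM factors Ubd was at 10.47 over untreated at 24 h and 11.73 at 48 h. Ubd was the lowest of the 10 genes in untreated cells, the eighth at 24 h and the highest at 48 h, above Psme1. The UMIs of Ubd per UMI of Psmb8 went from 0.528 at 24 h to 1.45 at 48 h. The 48 h library was shallower per cell, and the order was the same within each range of depth, at 155 and 499 CPM in cells of 5000 to 10000 UMIs, 95.2 and 782 CPM in cells of 10000 to 30000 and 259 and 768 CPM in cells of at least 30000 (24 h and 48 h). In cells of 10000 to 30000 UMIs other genes differed widely too. Psmb6 was at 165 and 351 CPM there, Psmb8 at 276 and 526 CPM and Psmb5 at 179 and 342 CPM. Only Psmb9 (190 and 184 CPM) and Psmb7 (116 and 112 CPM) were lower at 48 h in that range.

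Counted against all genes, 6 of the 10 (Psmb8, Psmb9, Psmb10, Psme1, Psme2 and Ubd) were at least 2-fold higher than untreated at 24 h, where 3.46% of genes were. The same 6 were at least 2-fold higher at 48 h, where 5.26% of genes were. No gene of the 10 was at least 2-fold lower, against 26.0% of genes at 24 h and 16.6% at 48 h. From 24 h to 48 h, 1 of the 10 (Ubd) was at least 2-fold higher and 0 were 2-fold lower, against 11.6% and 2.31% of 16814 genes. By TMM factors Psmb6 and Pomp also passed 2-fold at 24 h, which makes 8 of 10. These factors raise the ratios of all genes to untreated, and the share of all genes past 2-fold was not counted with them. The 8 can therefore not be set against the 3.46%. Depth mattered for this count too. In cells of 10000 to 30000 UMIs, Psmb5 (164 and 342 CPM, untreated and 48 h), Psmb6 (115 and 351 CPM) and Pomp (135 and 462 CPM) also passed 2-fold at 48 h. Pomp did so in cells of 5000 to 10000 UMIs as well (156 and 331 CPM). The share of all genes within ranges of depth was not counted. Among all genes ranked by their ratio, Ubd was number 14 at 24 h and number 9 at 48 h, and Psmb8 was number 23 and number 24.

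In the summed counts the rest of the proteasome was also slightly higher, within a narrower range. All 7 alpha subunits, which form the outer rings of the core, were higher at both times, with median log2 ratios of 0.84 and 0.44. At 24 h Psma5 and Psma4 had the largest values, with 0.97 and 0.86, and at 48 h they had 0.53 and 0.44, below Psma7 and Psma1 with 0.64 and 0.63. Of the non-catalytic beta subunits 4 of 4 were higher at 24 h and 3 of 4 at 48 h, led by Psmb4 with 0.74 and 0.74 and Psmb3 with 0.74 and 0.66, while Psmb1 had 0.33 and -0.05, the latter 0.13 by TMM factors. The 19S regulator, which recognises and unfolds substrates, was nearer to 0. Of its 6 ATPases 4 were higher at 24 h and 3 at 48 h, with Psmc4 at 0.43 and 0.10 and Psmc1 at -0.32 and -0.35, and by TMM factors Psmc1 was at 0.12 and -0.16. Psmc6 had -0.02 at 24 h, which is within counting error of 0, and -0.33 at 48 h. Of its 13 other subunits all were higher at 24 h and 9 at 48 h, with Psmd7 and Psmd3 the largest at 24 h. Psmd7 had 0.74 and 0.76 and Psmd3 had 0.59 and 0.31. In all, 28 of 30 of these subunits were higher at 24 h and 22 of 30 at 48 h, with medians of 0.45 and 0.21, and 0 of 30 reached 2-fold. These subunits were not counted within ranges of depth, so whether these counts hold at equal depth was not tested. In cells of 10000 to 30000 UMIs the catalytic Psmb5 was at 164, 179 and 342 CPM and Psmb6 at 115, 165 and 351 CPM. Of all genes 25.1% had a ratio above 0 at 24 h and 37.2% at 48 h, and of genes averaging 50 CPM or more 43.8% and 44.7%. With TMM factors 30 and 23 of 30 were higher, with medians of 0.90 and 0.39, and 10 and 0 reached 2-fold. The shares of all genes were counted by library totals only, so they cannot be set against these TMM counts. Psmb11, the subunit of the thymus, had too few UMIs to be measured.

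Among 7 further assembly chaperones 5 were higher at 24 h and 2 at 48 h, or 7 and 3 by TMM factors. Psmg4, which pairs with Psmg3 in building the alpha ring, stood apart with 36.7, 99.7 and 96.3 CPM and log2 ratios of 1.44 and 1.39. Psmg3 itself had 0.52 and -0.03, or 0.96 and 0.16 by TMM factors. Of the other activators and inhibitor, Psmf1 (PI31), which binds the core, had 0.65 and 0.78, Psme3 (PA28γ), the nuclear relative of Psme1, had 0.44 and 0.39, and Psme4 (PA200) had -0.51 and -0.09, or -0.07 and 0.10 by TMM factors. The 2 transcription factors known to raise constitutive proteasome genes under stress were not higher, with Nfe2l2 at -0.85 and -0.95 and Nfe2l1 at -0.40 and -0.15. By TMM factors Nfe2l1 was at 0.05 and 0.03 instead.

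The transcripts of proteins that act on FAT10 were far less changed than Ubd. Uba6, the activating enzyme for FAT10, was counted at 41.8, 31.9 and 39.9 CPM, with log2 ratios of -0.39 and -0.07, or 0.06 and 0.12 by TMM factors. Ube2z, its conjugating enzyme, was counted at 32.7, 28.7 and 33.6 CPM, with ratios of -0.19 and 0.04, or 0.26 and 0.22 by TMM factors. Sqstm1 (p62), an autophagy receptor that binds FAT10, had -0.50 and 0.07. Nub1, which binds FAT10 and speeds its degradation, was the exception with 42.7, 78.0 and 88.0 CPM and ratios of 0.87 and 1.04. Ubd lay below each of these 4 genes before treatment and above each of them at both times after it. Of the genes for ubiquitin itself, Rps27a, which encodes ubiquitin joined to a ribosomal protein, had log2 ratios of 0.51 at 24 h and 0.29 at 48 h. The polyubiquitin gene Ubb had 0.08 at 24 h and -0.61 at 48 h.

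The genes that handle proteasome products were also higher in both treated libraries. Tap1, 1 subunit of the peptide transporter into the endoplasmic reticulum, was counted at 5.30, 183 and 242 CPM, with log2 ratios of 5.11 and 5.51. Its partner Tap2 had 2.80 and 3.08. All 4 genes of the list were higher at both times, with medians of 2.56 and 3.03. Tap1 and Psmb9 start next to each other on opposite strands, as the promoter windows above show, yet their counts did not keep 1 ratio. There were 1.62 Tap1 UMIs per Psmb9 UMI in untreated, 0.777 in 24 h and 1.37 in 48 h cells. Of the transcription factors of the IFN-γ response, Nlrc5, the class I transactivator, had ratios of 6.97 and 8.07, and Irf1, an early regulator of interferon-stimulated genes, had 3.82 and 3.72.

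**Figure D3:**
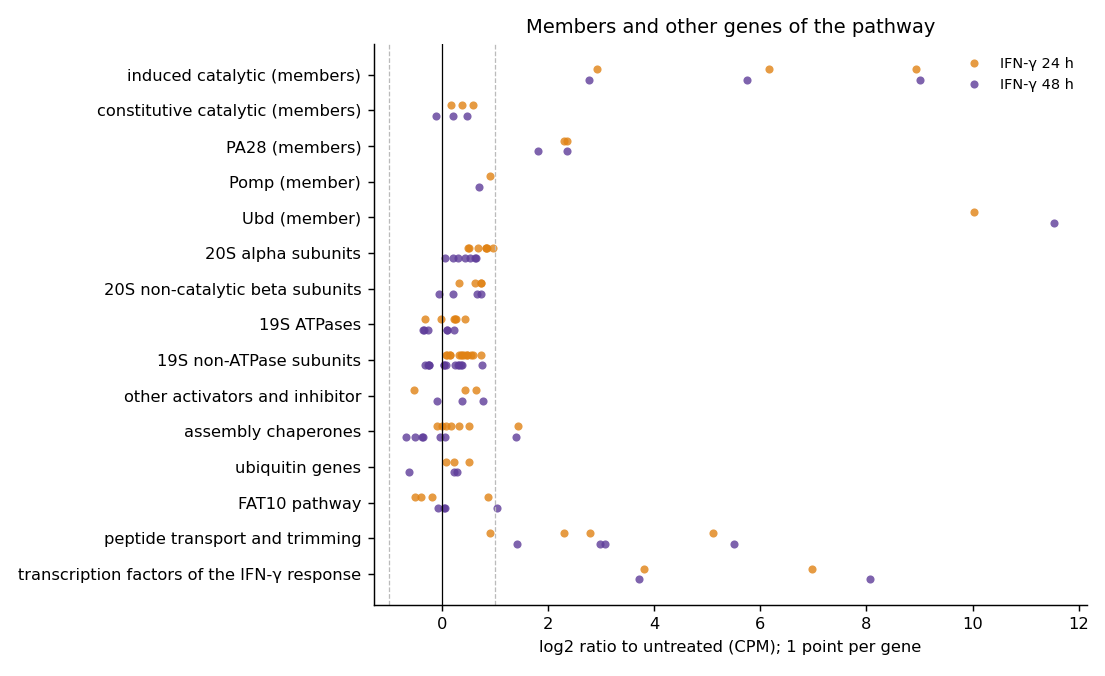
Log2 ratio of CPM to the untreated library for the 10 genes and for the other genes of the pathway, 1 point per gene, at 24 h and 48 h, with dashed lines at 2-fold. The induced catalytic subunits, PA28, Ubd, peptide transport and the transcription factors of the IFN-γ response lie mostly beyond 2-fold, while all 30 other core and 19S subunits lie within -0.35 to 0.97.

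Nearly all cells of the treated libraries held induced subunits. Each cell was thinned to 5000 UMIs at random to put the libraries on 1 depth, and no cell was lost by this. Cells without any UMI of an induced subunit made up 76.9% (95% CI 74.3 to 79.4%) of untreated, 2.07% (1.25 to 3.22%) of 24 h and 1.5% (1.09 to 2.01%) of 48 h cells. Cells with more induced than constitutive UMIs made up 2.36% (1.53 to 3.47%), 60.0% (56.7 to 63.2%) and 62.3% (60.5 to 64.0%). At a mean of 3.0, 8.65 and 8.36 catalytic UMIs per thinned cell, counting alone spreads these shares widely. Psmb8 was found in 0.662% of thinned untreated, 81.1% of 24 h and 86.0% of 48 h cells, and in 4.06%, 96.4% and 94.9% without thinning. Free RNA can give such counts, and barcodes under 2000 UMIs held Psmb8 at 2.06, 529 and 709 CPM, so that its part in the share of cells with a UMI was not tested.

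Ubd was more uneven between cells than the subunits. It was found in 0.0945% (0.00239 to 0.525%) of thinned untreated, 44.4% (41.1 to 47.7%) of 24 h and 86.1% (84.8 to 87.4%) of 48 h cells, and in 0.851%, 83.4% and 96.3% without thinning. Psmb9, at a similar summed level at 24 h, was found in 65.4% of thinned 24 h cells. The tenth of the cells with most Ubd held 55.7% of its thinned UMIs at 24 h and 35.7% at 48 h, against 31.0% and 32.7% for Psmb9. For Psmb7, with a mean of 0.545 UMIs per thinned cell at 48 h, this share was 38.7% and 41.1%. For Psme1, with a mean of 2.71, it was 24.9% and 23.6%. At 48 h this share alone therefore does not set Ubd, with a mean of 3.18, apart from all subunits. The coefficient of variation beyond counting error was 1.76 for Ubd at 24 h and 0.99 at 48 h. For the other 9 genes it was 0.28 to 0.48 at 24 h and 0.25 to 0.38 at 48 h. Single thinned cells had up to 24 Ubd UMIs at 24 h and up to 52 at 48 h. Barcodes under 2000 UMIs held Ubd at 325 CPM at 24 h and 1048 CPM at 48 h.

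**Figure D4:**
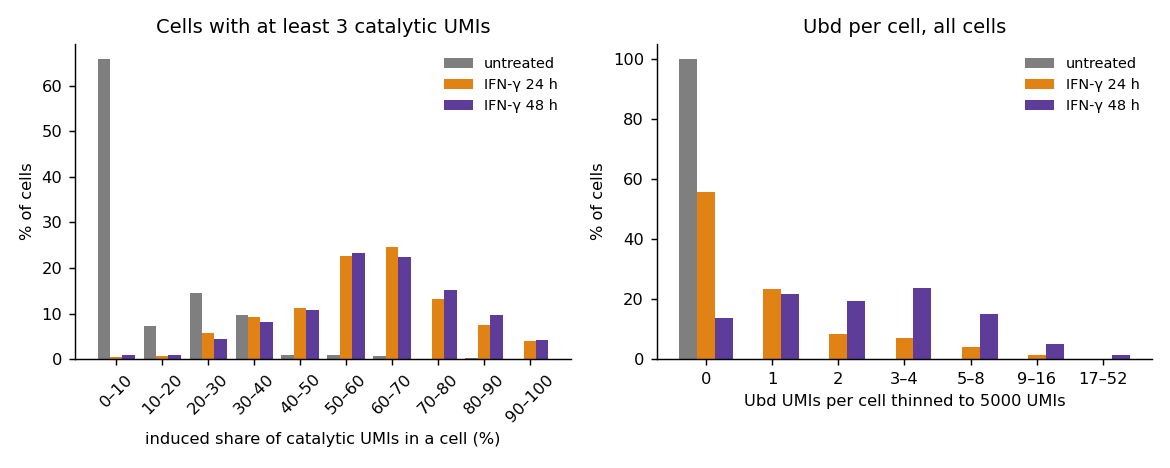
Left, percent of cells in each range of the induced share of catalytic UMIs, for cells with at least 3 such UMIs after thinning to 5000 UMIs (583 untreated, 876 at 24 h and 2847 at 48 h). Right, percent of all kept cells by their Ubd UMIs after thinning. In untreated cells the lowest range holds 65.9% of cells and treated cells centre between 50% and 70%, while 55.6% of 24 h cells and 13.9% of 48 h cells hold 0 Ubd UMIs.

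The cells were clustered after integration of the libraries, without the 10 genes and the pathway lists among the variable genes, and clusters were named from marker lists where these led them. This gave proliferating-like (cluster 1), colonocyte-like (3), goblet-like (5 and 6) and enteroendocrine-like (7) cells. Clusters 0 (led by Lrrc4, with the stem list highest but none of it among the leading genes), 2 (Hist1h1a and Ung), 4 (Ano3, Stox2 and Edn1) and 8 (Gm26917) stayed unnamed. Clusters 0, 5 and 8 were shallow against their library, with a median of 14849, 14951 and 6797 UMIs per cell at 24 h. In clusters with at least 20 cells the induced share was 5.17 to 11.1% in untreated, 55.7 to 60.8% in 24 h and 56.5 to 64.9% in 48 h cells, so the ranges of the treated libraries lay apart from the untreated range. It was 11.1% in colonocyte-like and 5.17% in cluster 4 cells before treatment. At 24 h the same clusters had 59.7% and 56.7%, and at 48 h they had 62.3% and 57.2%. In all 7 clusters that could be compared at both times with untreated, Psmb8, Psmb9, Psmb10, Psme1, Psme2 and Ubd were above the untreated value at both times.

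Across these clusters Ubd had the widest span of the 10 genes in both treated libraries, but at 24 h this depended on the clustering, since at a resolution of 0.3 its span was 3.82-fold and that of Psmb8 was 4.5-fold. At 24 h Ubd was lowest in goblet-like cluster 6 with 87.3 CPM (95% CI 78.4 to 97.0) and highest in cluster 4 with 736 CPM (712 to 761), an 8.43-fold span. Proliferating-like cells had 206 CPM, cluster 2 had 209 CPM and colonocyte-like cells had 313 CPM. The other goblet-like cluster, the shallow cluster 5, had 319 CPM (280 to 361) in 29 cells at 24 h. The goblet-like clusters were thus unlike each other at that time. At 48 h the lowest level was 326 CPM (297 to 358) in goblet-like cluster 5, whose counting intervals at 24 h and 48 h overlapped. The highest levels were 1396 CPM (1362 to 1430) in colonocyte-like cells and 1325 CPM (1290 to 1362) in cluster 4, a 4.28-fold span. Goblet-like cluster 6 had 435 CPM and proliferating-like cells 695 CPM at 48 h. Over clusters with at least 20 cells, Psmb9 spanned 2.05-fold at 24 h and 1.39-fold at 48 h, and Psmb7 spanned 1.82-fold and 1.19-fold. Psmb8 spanned 4.76-fold and 1.94-fold, with its lowest 24 h level, 121 CPM, in the 24 shallow cells of cluster 8. Ubd was higher at 48 h than at 24 h in 7 of 7 clusters with at least 20 cells at both times, by log2 ratios of 0.03 to 2.32. Psmb9, Psme2 and Psmb7 were lower at 48 h in 7 of 7. Psmb8 was higher in 6 of 7 and Psmb10 lower in 5 of 7. Clusters share their library, so these counts are not replicates. Nor are they matched for depth, since proliferating-like cells had a median of 101483 UMIs at 24 h and 27460 at 48 h. Within ranges of depth, Psme2 was lower at 48 h only in the deepest cells.

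**Figure D5:**
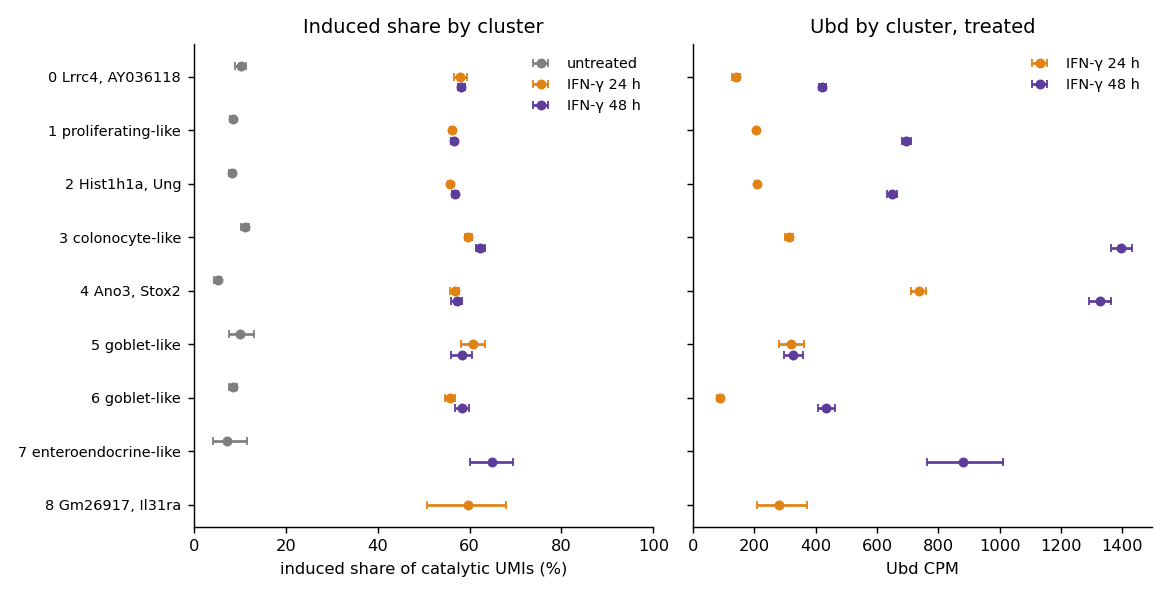
Left, induced share of catalytic UMIs by cluster and library, with exact 95% counting intervals, for clusters with at least 20 cells in that library. Right, Ubd in CPM by cluster in the 24 h and 48 h libraries. Unnamed clusters carry their first 2 leading genes. The share lies between 55.7% and 64.9% in every treated cluster shown, whereas Ubd runs from 87.3 to 1396 CPM.

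Over the 24 sums of a cluster in a library, the genes whose log2(CPM + 5) was most like that of Psmb8, out of 3815 genes averaging 50 CPM or more, were Igtp (Pearson's r = 0.996), Cd74 (0.992), Gbp2 (0.991), Cxcl9 (0.989) and Ifi47 (0.988). For Ubd they included H2-Eb1 (0.983), Cd74 (0.978), Gbp4 (0.977) and Gbp3 (0.971). The points share libraries, and these values mostly express the difference between untreated and treated sums. Igtp, a GTPase of the interferon response, was counted at 0.321, 403 and 431 CPM, near to Psmb8. H2-Eb1, an MHC class II chain, was counted at 0.141, 161 and 368 CPM and so was higher at 48 h than at 24 h, like Ubd. Over the 16 treated sums alone, r was 0.34 between Ubd and Psmb8 and 0.92 between Psmb10 and Psmb8, and it was 0.91 between the constitutive Psmb5 and Psmb8. Other genes were above these values over the same sums, so they do not set the members apart. Most like Psmb8 were Smim7 (0.983), Uqcrh (0.975), Cox7a2l (0.975), Ndufs5 (0.970) and Atp5l (0.968). Smim7 was counted at 81.9, 75.3 and 71.5 CPM.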

How the data were processed

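Libraries used the 3' v3 kit of 10x Genomics. Reads were aligned to mm10 and counted with Cell Ranger 6.0.1 per the labels, and the authors deposited the resulting UMI counts, 1 matrix a library. These counts were whole numbers without normalization, and the matrices still held low barcodes, down to 851 to 1624 UMIs. The annotation behind the matrices is not given in the sources used here.

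Cells were kept by the filter of the study's methods (at least 5000 UMIs, 400 genes, at most 15% mitochondrial UMIs). Counts were summed per library. Ratios carry exact conditional binomial, levels exact Poisson and shares exact Clopper-Pearson intervals, all at 95%. A log2 ratio of at least 1 is a size, not a test. The ratio code was tested on simulated data. Clustering in Seurat 5.3.0 used the study's settings (CCA, 2000 variable genes, 20 principal components, resolution 0.5), with 30 dimensions for CCA, 68 genes (the 10 and the lists) barred from the variable genes and similar clusters not joined. Doublets and free RNA were not removed. TMM factors came from edgeR 4.0.16, other steps from Python 3.11.15. The 10 genes, the pathway and marker lists and the rules were chosen with earlier results of these data known. Named from each list are the 2 genes with the largest 24 h change and any that moved against the rest, further genes were chosen after their values were seen, and likeness was ranked among genes of at least 50 CPM. Promoter windows are RefSeq's. The values of 3 list genes are not reported here.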

Additional observations from a re-analysis of the deposited data

Results flagged for a closer look

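Psmb7 had opposite signs at the 2 times, with a log2 ratio to untreated of 0.18 at 24 h and -0.11 at 48 h, and both counting intervals left out 0. The difference between the times was not tested against the spread of libraries, since each time has 1. The sign at 48 h turned with the scaling, and Psmb7 was above untreated in 6 of 7 clusters at 24 h and in 4 of 8 at 48 h. It also turned with depth. In cells of 5000 to 10000, 10000 to 30000 and at least 30000 UMIs, Psmb7 was at 98.3, 105 and 122 CPM in untreated. At 48 h it was at 111, 112 and 109 CPM.

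Barcodes with fewer than 2000 UMIs, which entered no comparison of cells, carried the response of their library. Psmb8 lay at 529 CPM in those of the 24 h library and at 709 CPM in those of the 48 h library, against 2.06 CPM in those of the untreated library. Ubd lay at 325 CPM and 1048 CPM, against 0.275 CPM. These levels were above those of the kept cells of the same library, which had 474 and 495 CPM of Psmb8 and 250 and 719 CPM of Ubd. Whether these barcodes held free RNA or small cells was not tested.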

How the results depend on the processing

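No paired analysis was possible because each condition has 1 library. The induced share stayed between 8.54% and 9.47% in untreated, 56.7% and 57.5% in 24 h and 57.4% and 58.7% in 48 h cells under the 7 alternatives that can change it. Values outside the counting interval were, for the mean over cells, 9.47%, 57.4% and 58.5%, for cells thinned to 5000 UMIs 8.98%, 57.4% and 58.7%, without the 5% of cells with most UMIs 9.01% (untreated), with equal weight of 7 clusters 57.5% and 58.2% (24 h and 48 h) and with at least 10000 UMIs 57.4% (48 h). The median ratio of the constitutive subunits stayed positive. At 24 h it was 0.82 by TMM, 0.84 by median-of-ratios scaling, 0.41 as a mean over cells, 0.34 with at least 2000 UMIs and 0.32 with at most 10% mitochondrial UMIs. At 48 h it was 0.39 by TMM, 0.38 by median-of-ratios, 0.33 as a mean over cells, 0.28 for thinned cells, 0.28 with at least 10000 UMIs and 0.28 with equal weight of clusters. The log2 ratio of Ubd stayed within its counting interval, at 9.42 to 10.48 for 24 h and 10.90 to 11.86 for 48 h. Of 162 further log2 ratios of single members to untreated, 83 moved outside the counting interval without changing sign, with Psmb8 as low as 8.28 at 24 h and 8.41 at 48 h. Another 3 changed sign, those of Psmb7 at 48 h, to 0.080 by TMM, 0.075 by median-of-ratios and 0.0052 as a mean over cells. Ratios between 24 h and 48 h were not among these values. By TMM Psmb8 was lower at 48 h than at 24 h, unlike by library totals. Of 63 values of the pair ratios, 0 changed sign and 42 stayed within the counting interval, and the largest shift was 0.72, in untreated Psmb8 to Psmb5 for thinned cells. At resolutions of 0.3 and 1 the induced share by cluster was 56.0 to 59.6% and 54.2 to 63.1% at 24 h, and Ubd spanned 3.82-fold and 9.68-fold, against 4.5-fold and 4.88-fold for Psmb8. The causes were not tested. Every value rests on 1 library per condition, and the untreated values of Psmb8 and Ubd rest on 48 and 12 UMIs.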
